A study of Homo sapiens with 4 samples.

Results

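Keratins are the intermediate filament proteins of epithelial cells, and 10 of them are described here in HCC1954 cells after depletion of the palmitoyltransferase gene ZDHHC15. The genes were chosen by name, with earlier results of these data known. The 6 basal or stress keratins were KRT5, KRT6A, KRT6B, KRT14, KRT16 and KRT17, and the 4 simple or luminal keratins were KRT7, KRT8, KRT18 and KRT19. All 10 were found among the 58735 genes of the deposited count table. HCC1954 is a long-established line of human breast cancer cells that carries an ERBB2 amplification. RNA was sequenced from 2 samples of cells carrying a scrambled control hairpin (shCON) and 2 samples of cells carrying a GIPZ hairpin against ZDHHC15 (shZDHHC15), all grown in RPMI-1640 with serum and given no other agent. The labels describe the knockdown as stable in one field, and in another they describe Lipofectamine transfection of the hairpin plasmids with harvest at 36 h. The study's methods also mention monoclonal cultures screened for hairpins, and whether the samples of a group came from separate cultures, clones or hairpins is not given in the sources used here, so the p-values measure only the spread between these samples.

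A keratin filament is built from obligate pairs, each of a type I (acidic) chain and a type II (basic) chain, and a chain without its partner is usually degraded. In the breast, luminal cells mainly use KRT8, KRT18, KRT7 and KRT19, while basal cells use KRT5, KRT14 and KRT17. KRT6A, KRT6B and KRT16 are known for their induction in wounded, inflamed or hyperproliferative epidermis. The type II genes lie in a cluster on chromosome 12, which also holds the type I gene KRT18, and the other type I genes lie on chromosome 17.

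Some of these genes resemble each other closely enough to share reads, which bears on the values of KRT6A, KRT6B and KRT14. The coding sequences of KRT6A and KRT6B were identical at 97.5% of 1692 aligned bases, with a longest identical run of 269 bases. Those of KRT14 and KRT16 were identical at 88.7% of 1389 aligned bases, with a longest run of 158 bases. The 60-base coding windows with the most differences are shown for both pairs, with the differing bases in capitals. Only windows that lay within a single exon of each gene and held no alignment gap were considered. They are shown because reads over differing bases are the ones that can tell the genes apart. The sequences are from GENCODE release 29 on GRCh38 and are written along the minus strand, on which all 4 genes lie. The KRT6A window lies in exon 2 at chr12:52491555-52491614, the KRT6B window in exon 2 at chr12:52450439-52450498, the KRT14 window in exon 5 at chr17:41583585-41583644, and the KRT16 window in exon 5 at chr17:41610888-41610947.
KRT6A: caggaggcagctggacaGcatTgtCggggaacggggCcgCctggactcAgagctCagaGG
KRT6B: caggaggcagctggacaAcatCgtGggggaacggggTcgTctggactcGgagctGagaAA
KRT14: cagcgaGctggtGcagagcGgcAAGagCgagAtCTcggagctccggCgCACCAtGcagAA
KRT16: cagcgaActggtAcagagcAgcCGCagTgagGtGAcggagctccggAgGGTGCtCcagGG
The KRT6 windows differed at 9 bases and the KRT14 and KRT16 windows at 19 bases. KRT6B and the little-expressed KRT6C also shared a stretch of 1870 bases at 97.4% identity, although KRT6C received only 62 counts over the 4 samples.

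Library totals lay between 17560982 and 19118704 counts on genes, and 15817 genes passed the filter on low counts, including all 10 keratins. ZDHHC15 itself had 17617 and 15716 counts with the control hairpin. It had 0 counts in both depleted samples, a result that allows up to 3 counts per library, so it was at least 6047-fold lower. YAP1, the transcriptional cofactor at the centre of the study, changed by -2.81 in log2 terms (adjusted p = 4.30e-11). Levels are given in CPM, the count per 1000000 counts after library scaling. All 7 epithelial markers examined were expressed and 5 of them were lower, where 20.3% of all tested genes were lower. ERBB2 stood at 5752 ± 241 CPM in shCON and 4868 ± 224 CPM in shZDHHC15 cells (SD, n = 2). The 10 leukocyte markers summed to between 0.888 and 2.31 CPM, with 4 of them at 0 counts throughout, and the 8 fibroblast markers summed to between 5.97 and 11.5 CPM. The 6 endothelial markers summed to 57.6 and 57.7 CPM in shCON cells and to 108 and 101 CPM in shZDHHC15 cells, mostly from CDH5 and PECAM1, and the part of these markers in the keratin values was not tested.

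Keratin transcripts were much less abundant in ZDHHC15-depleted HCC1954 cells. The 10 keratins took 1.85% and 2.02% of all counts in the shCON samples and 0.772% and 0.919% in the shZDHHC15 samples. At an adjusted p under 0.05 from edgeR's quasi-likelihood test over all genes, 8 of the 10 were lower, where 20.3% of all tested genes were lower, and 2 of the 10 were higher, where 21.7% of all tested genes were higher. The median log2 fold change was -0.99 for the 10 keratins and 0.02 for all tested genes. Among the 2308 genes with a mean of at least 100 CPM, which is closer to the levels of most of these keratins, 37.4% were lower and the median was -0.10. The losses were found in both classes, with 5 of 6 basal or stress keratins and 3 of 4 luminal keratins lower. The exceptions were KRT6B and KRT19, one in each class. The shCON and shZDHHC15 samples did not overlap for any of the 10 genes, but with 2 samples a group the same held for 72.5% of all tested genes. Fewer keratin-expressing cells and less keratin RNA per cell cannot be told apart in bulk samples.

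**Figure D1:**
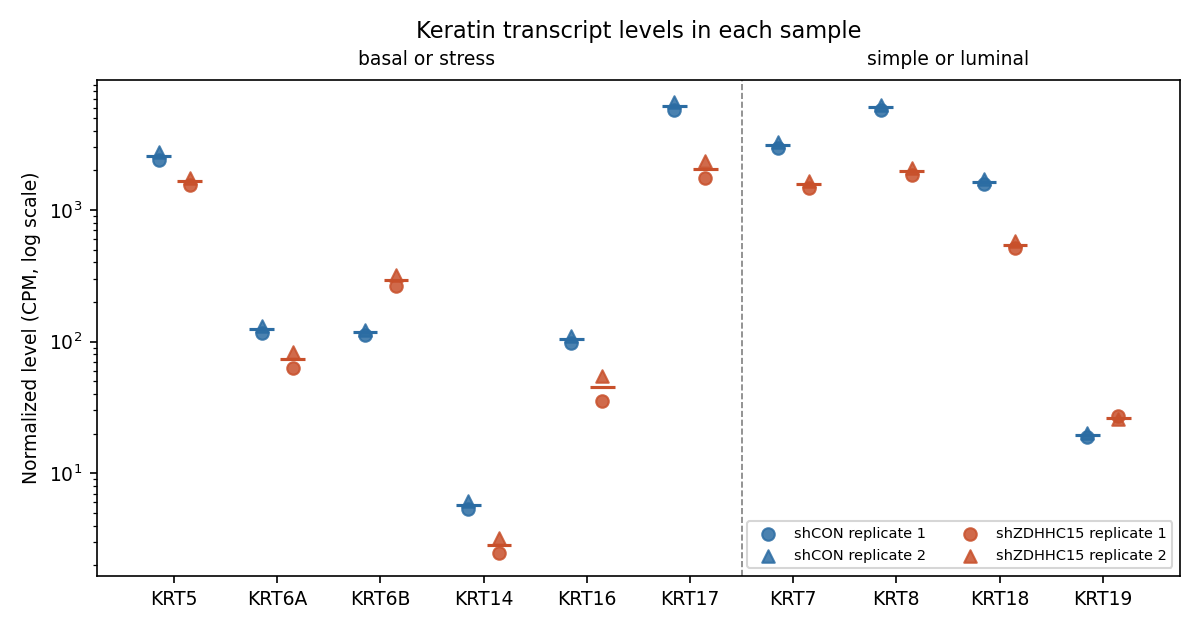
Normalized level in CPM (vertical axis, log scale) of each of the 10 keratins in the 4 samples, with circles for replicate 1, triangles for replicate 2 and short lines for group means (n = 2). The shZDHHC15 points lie below the shCON points for 8 genes and above them for KRT6B and KRT19.

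The luminal pair KRT8 and KRT18, the filament pair of simple epithelia, fell together. KRT8 (ENSG00000170421, chromosome 12, 52897187 to 52949954) was measured at 5767 and 6334 CPM in shCON cells and at 1850 and 2081 CPM in shZDHHC15 cells. Its log2 fold change was -1.62 (standard error 0.0930, adjusted p = 4.87e-09). KRT18 (ENSG00000111057, chromosome 12, 52948871 to 52952901), its type I partner, was measured at 1566 and 1712 CPM in shCON cells and at 512 and 582 CPM in shZDHHC15 cells. The log2 fold change of KRT18 was -1.58 (standard error 0.0946, adjusted p = 7.76e-09). In both genes the samples of a group lay close to each other and the groups were far apart. Per kilobase of gene length, KRT8 was 1.72 and 1.73 times as abundant as KRT18 in the shCON samples and 1.69 and 1.67 times in the shZDHHC15 samples, so the pair kept nearly the same ratio while both transcripts fell. With principal transcript lengths the ratio was higher, at 3.06 ± 0.0101 in shCON and 2.98 ± 0.0216 in shZDHHC15 cells (SD, n = 2). KRT8 and KRT18 are transcribed from opposite strands and share 525 bases of annotated exon, which is 7.63% of the KRT8 exons and 16.3% of the KRT18 exons, and whether counting used the strand is not given in the sources used here. The processed pseudogene KRT8P3, near-identical to KRT8 over 1449 bases, received 206 and 173 counts in shCON and 68 and 70 counts in shZDHHC15.

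The second luminal pair did not move together. KRT7 (ENSG00000135480, chromosome 12, 52232520 to 52252186), a type II keratin of glandular epithelia, fell from 2942 and 3268 CPM to 1480 and 1652 CPM. The fitted change was -0.99 on the log2 scale with an adjusted p of 1.02e-06 (standard error 0.0921), and the antisense gene KRT7-AS covers 6.89% of its exons. KRT19 (ENSG00000171345, chromosome 17, 41523617 to 41528308), the smallest type I keratin and a common marker of luminal breast cells, rose from 18.8 and 20.1 CPM to 27.0 and 25.7 CPM. Its log2 fold change was 0.44 (standard error 0.126, adjusted p = 0.0115), and without shZDHHC15 replicate 1 it was 0.41 with an adjusted p of 0.0806, whereas it stayed between 0.00546 and 0.0483 under the other 11 alternatives, the other samples left out in turn included. KRT19 was a minor keratin of these cells in either state. Per kilobase, KRT7 exceeded KRT19 by 89.4-fold and 92.9-fold in the shCON samples and by 31.3-fold and 36.6-fold in the shZDHHC15 samples.

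KRT17, a type I keratin of basal and activated epithelial cells, was the most abundant of the 10 per kilobase in both groups. KRT17 (ENSG00000128422, chromosome 17, 41619441 to 41624842) was measured at 5752 and 6576 CPM in shCON cells and at 1745 and 2372 CPM in shZDHHC15 cells. Its log2 fold change was -1.58 (standard error 0.123, adjusted p = 1.50e-07). The fall of KRT17 was thus close in size to those of KRT8 and KRT18 although it belongs to the other class, and the KRT17 to KRT8 ratio per kilobase was 2.19 and 2.28 in shCON and 2.07 and 2.51 in shZDHHC15 samples, overlapping ranges. With principal transcript lengths it was 1.26 ± 0.0358 and 1.29 ± 0.172. The unprocessed pseudogene KRT17P2 received 118 and 163 counts in shCON and 34 and 54 counts in shZDHHC15.

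KRT5, the main type II keratin of basal cells, had a smaller fitted fall than KRT17. KRT5 (ENSG00000186081, chromosome 12, 52514575 to 52520687) was measured at 2407 and 2767 CPM in shCON cells and at 1557 and 1765 CPM in shZDHHC15 cells. The log2 fold change was -0.64 (standard error 0.0961, adjusted p = 9.94e-05). Within samples, KRT5 stood at 0.305 and 0.307 of the KRT17 level per kilobase in shCON cells and at 0.651 and 0.543 in shZDHHC15 cells. KRT14 (ENSG00000186847, chromosome 17, 41582279 to 41586921), the usual type I partner of KRT5 in basal cells, was close to absent from this line. Only 97 and 103 reads were counted for it in shCON cells and 46 and 63 in shZDHHC15 cells, which is 5.31 and 6.10 CPM against 2.47 and 3.20 CPM. Its log2 fold change was -1.0 (standard error 0.239, adjusted p = 0.00376). These few KRT14 counts are uncertain, since the stretches shared with KRT16, which received 5381 counts against 309 for KRT14, could send KRT16 reads to KRT14. KRT5 was 241-fold above KRT14 per kilobase in both shCON samples, so the textbook basal pair was not present in comparable amounts.

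**Figure D2:**
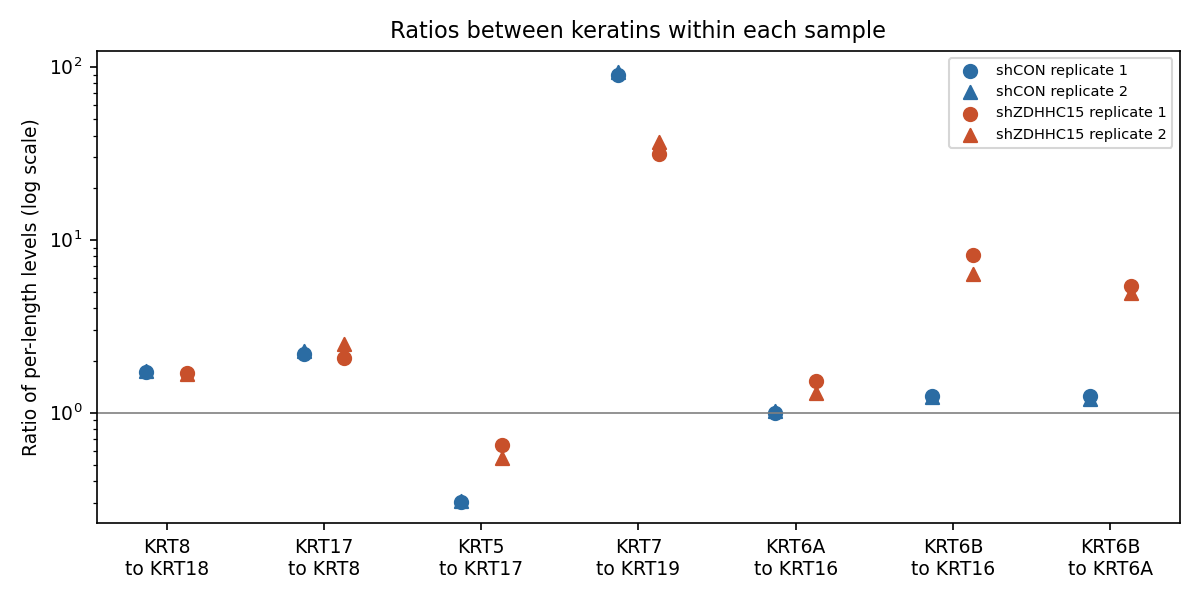
Ratios of per-kilobase levels between named keratins within each sample (vertical axis, log scale), with shCON in blue, shZDHHC15 in orange, circles for replicate 1 and triangles for replicate 2. KRT8 to KRT18 and KRT17 to KRT8 hardly differ between groups, while KRT6B to KRT6A rises from 1.25 and 1.20 to 5.38 and 4.91.

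The stress keratins KRT6A, KRT6B and KRT16, which are usually induced together, separated in these cells. KRT6B (ENSG00000185479, chromosome 12, 52446651 to 52452126), a type II keratin, rose from 113 and 123 CPM to 267 and 321 CPM. Its log2 fold change was 1.32 (standard error 0.106, adjusted p = 2.13e-07), the largest rise among the 25 tested keratins. KRT6A (ENSG00000205420, chromosome 12, 52487174 to 52493257) lies beside it in the same cluster with only KRT6C between them among the tested keratins. KRT6A was measured at 116 and 132 CPM in shCON cells and at 63.5 and 83.8 CPM in shZDHHC15 cells. The KRT6A change was -0.75 on the log2 scale with an adjusted p of 2.39e-04 (standard error 0.125). The near-identical genes thus started at like levels and moved in opposite directions. The KRT6B to KRT6A ratio per kilobase was 1.25 and 1.20 in shCON and 5.38 and 4.91 in shZDHHC15 samples, and reads from the identical run of 269 bases could be counted for either gene. KRT16 (ENSG00000186832, chromosome 17, 41609778 to 41615899), a type I stress keratin, was measured at 98.3 and 109 CPM in shCON cells and at 35.4 and 54.9 CPM in shZDHHC15 cells. The log2 fold change of KRT16 was -1.20 (standard error 0.153, adjusted p = 2.26e-05), and its shZDHHC15 samples were further apart than those of most other members. Relative to KRT16, KRT6B went from 1.24-fold and 1.22-fold to 8.17-fold and 6.33-fold per kilobase, while KRT6A went from 0.994-fold and 1.02-fold to 1.52-fold and 1.29-fold. With principal transcript lengths KRT6B lay below KRT16 in shCON cells, at 0.824-fold and 0.813-fold, and above it in shZDHHC15 cells, at 5.43-fold and 4.21-fold.

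Levels of different keratins were compared after division by the gene length given in the table. In shCON cells the order per kilobase was KRT17 (1969 ± 186), KRT8 (879 ± 58.3), KRT7 (759 ± 56.4), KRT5 (603 ± 59.4), KRT18 (509 ± 32.1), KRT6B (51.7 ± 3.39), KRT6A (42.3 ± 4.0), KRT16 (42.0 ± 3.15), KRT19 (8.32 ± 0.389) and KRT14 (2.5 ± 0.243), in CPM per kilobase (SD, n = 2). Only the neighbours KRT6A and KRT16 had overlapping sample ranges in that order. In shZDHHC15 cells the order was KRT17 (658 ± 141), KRT5 (387 ± 34.2), KRT7 (383 ± 29.7), KRT8 (286 ± 23.7), KRT18 (170 ± 15.3), KRT6B (129 ± 16.7), KRT6A (25.2 ± 4.89), KRT16 (18.2 ± 5.57), KRT19 (11.3 ± 0.374) and KRT14 (1.24 ± 0.229). Here KRT5 overlapped KRT7 and KRT6A overlapped KRT16. KRT5 therefore moved from the fourth place to the second, and KRT8 from the second to the fourth. That exchange depended on the length used. The table gives KRT8 6881 bases, whereas its principal transcript has 1882 bases, and with principal transcript lengths KRT8 was second in both groups while KRT5 moved from the fifth place to the fourth.

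The make-up of the 10 keratins shifted with depletion. Among their summed per-kilobase level, KRT17 held 40.4% ± 0.472 in shCON and 31.6% ± 2.69 in shZDHHC15 cells (SD, n = 2). KRT8 held 18.1% ± 0.302 and 13.9% ± 0.672. KRT5 held 12.4% ± 0.194 and 18.8% ± 0.809. The share of KRT6B was 1.06% ± 0.0185 in shCON cells and 6.22% ± 0.00857 in shZDHHC15 cells, which made it a visible component only after depletion. With principal transcript lengths the KRT6B shares were 0.458% and 2.85% and the KRT8 shares 28.5% and 23.2%, with the same directions. The basal or stress class as a whole exceeded the luminal class by 1.23-fold and 1.28-fold in the shCON samples and by 1.34-fold and 1.52-fold in the shZDHHC15 samples. With only 2 samples per group, a two-sided permutation test cannot give a p under 0.333, and no test was made of these ratios. With principal transcript lengths the luminal class was the larger in both groups, with mean ratios of 0.868 and 0.951.

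**Figure D3:**
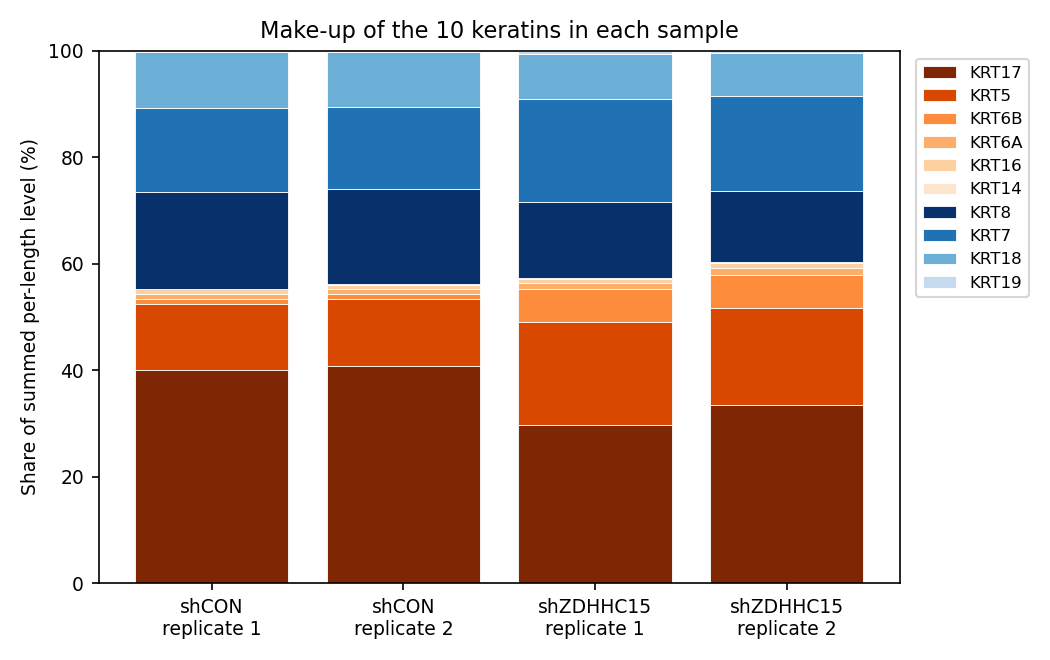
Share of each keratin in the summed per-kilobase level of the 10 keratins (vertical axis, percent) in each sample, with basal or stress keratins in browns and oranges and luminal keratins in blues. The KRT17 and KRT8 bands are narrower and the KRT5 and KRT6B bands wider in the shZDHHC15 samples, while KRT14 and KRT19 are too small to see.

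The remaining keratin genes, where called, were lower. Of 45 other keratins, 15 were expressed highly enough to be tested. By edgeR's quasi-likelihood test at the same threshold 9 were called lower and 0 higher, with a median log2 fold change of -0.62. The shares over all tested genes were 20.3% lower and 21.7% higher. No other keratin was called higher by DESeq2 either, and none that was higher had an unadjusted p under 0.05. A hair keratin outside the 10 was as prominent as KRT17. KRT81, a type II chain of hair and nail, stood at 3737 ± 528 CPM per kilobase in shCON and 1146 ± 183 in shZDHHC15 cells, above KRT17 with the lengths of the table, whereas with principal transcript lengths KRT17 was above it in both groups. KRT81 fell by 1.71 (adjusted p = 3.96e-08 by edgeR's quasi-likelihood test). KRT86 fell by 1.97, but its coding sequence shares an identical run of 605 bases with that of KRT81. The 2 sequences were identical at 94.2% of 1454 aligned bases. KRT81 received 337314 counts over the 4 samples against 8606 for KRT86. The KRT86 value, which is among the 9 called lower, is therefore uncertain, since KRT81 reads could be counted for KRT86. KRT34, a hair type I chain, fell by 3.42 from 40 and 31 counts to 1 and 6 counts. KRT13, a type I keratin of internal stratified epithelia, fell by 2.14. KRT75 fell by 1.31, KRT80 fell by 1.30, KRT9 fell by 1.16, KRT10 fell by 0.62 and KRT23 fell by 0.30.

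KRT15, a type I keratin of basal cells, was abundant and passed the test in neither direction. It was measured at 1271 ± 78.6 CPM in shCON and 1247 ± 91.2 CPM in shZDHHC15 cells with a fitted change of -0.03 in log2 terms (adjusted p = 0.841, standard error 0.0899). Beside KRT5, which fell, the KRT5 to KRT15 ratio per kilobase was 3.26 and 3.44 in shCON samples and 1.95 and 2.46 in shZDHHC15 samples. KRT15 and KRT19, the chromosome 17 neighbours, were the tested genes of that cluster with the least negative and the positive value.

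The falls were spread over both clusters. On chromosome 12, 9 of 14 tested keratins were lower and 1 was higher, and on chromosome 17, 8 of 11 were lower and 1 was higher. By type, 9 of 12 type I and 8 of 13 type II genes were lower, where 20.3% of all tested genes were lower. Summed over all 55 keratins and per kilobase, type II transcripts exceeded type I transcripts by 2.18-fold and 2.27-fold in the shCON samples and by 2.23-fold and 2.18-fold in the shZDHHC15 samples. With the lengths of the table, the balance of the chain types therefore differed by less than the spread between samples across the whole family. KRT81 alone added 3737 CPM per kilobase in shCON and 1146 in shZDHHC15 cells to the type II sum. Principal transcript lengths were not applied to all 55 keratins. Among the 10 keratins alone the same ratio went from 0.929 and 0.916 to 1.52 and 1.32. With principal transcript lengths type II exceeded type I in both groups, by 1.19-fold and 1.17-fold in shCON and by 1.70-fold and 1.47-fold in shZDHHC15 samples.

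**Figure D4:**
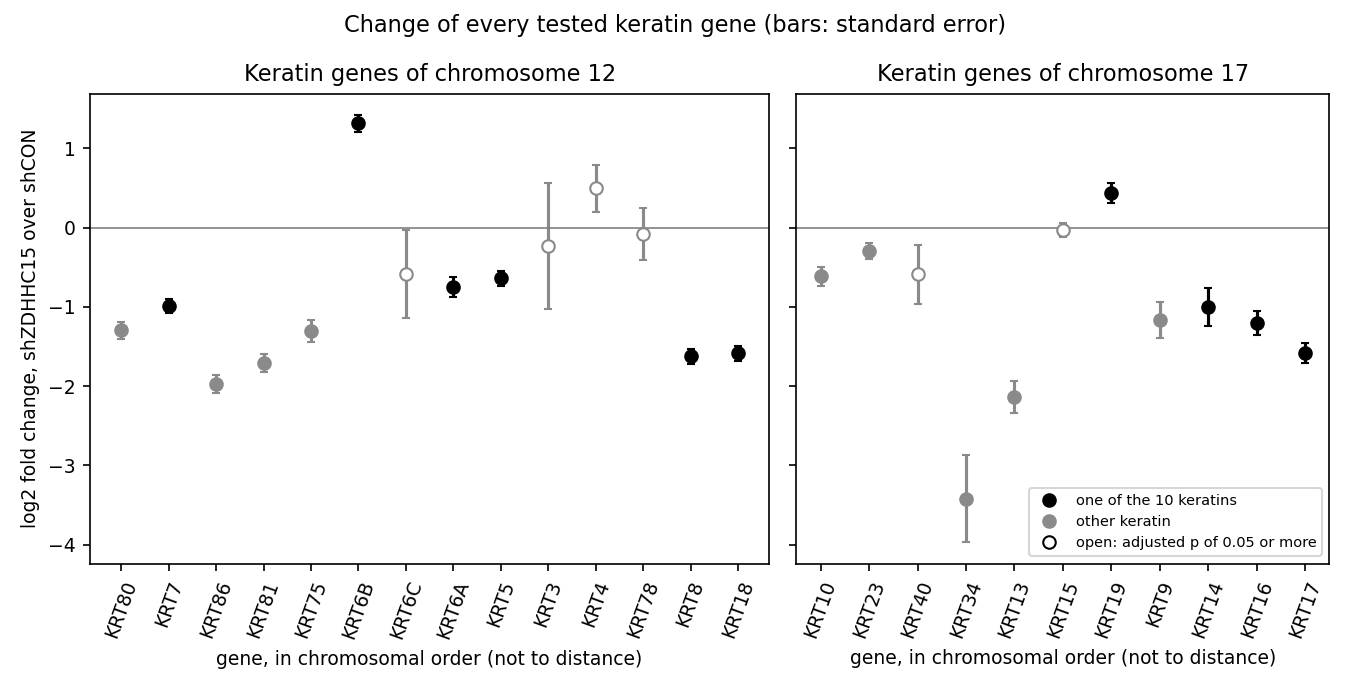
Log2 fold change of shZDHHC15 over shCON (vertical axis, bars are standard errors) for the 25 tested keratin genes in their order along chromosomes 12 and 17, with the 10 keratins in black, other keratins in grey and open symbols for an adjusted p of 0.05 or more. KRT6B and KRT19 are the filled symbols above 0, each among neighbours that lie lower.

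Genes of the structures to which keratins attach, and of other proteins that associate with keratins, were called in both directions. For comparison, 21.7% of all tested genes were higher and 20.3% lower. Of 18 tested genes of desmosomes, hemidesmosomes, plakin linkers and keratin-associated proteins such as SFN, a 14-3-3 protein, 5 were higher and 6 lower (3 lower without shZDHHC15 replicate 1), with a median log2 fold change of 0.08. DSP, the desmoplakin gene that ties keratins to desmosomes, rose by 0.63 (standard error 0.127, adjusted p = 0.00114). DST, which includes the hemidesmosomal linker, rose by 1.31, and DSC2, a desmosomal cadherin, rose by 0.70. PKP2 fell by 0.82, SFN fell by 0.76 and CD151 fell by 0.66, and CD151 shares exon bases with POLR2L. PLEC, the plectin gene, had a log2 fold change of 0.05 (adjusted p = 0.676). The other intermediate filament genes included 8 tested, 2 higher (1 without either shCON replicate 2 or shZDHHC15 replicate 2) and 4 lower, with a median of -0.23. VIM, the mesenchymal filament gene, fell by 2.98 (standard error 0.170, adjusted p = 4.64e-09) from 950 and 885 counts to 93 and 161 counts, with antisense genes over its exons. IFFO2 fell by 0.62 and LMNA, a nuclear lamina gene, fell by 0.45. SYNM rose by 0.63, and NES, from 3 and 1 counts to 10 and 12 counts, was at least 3.35-fold higher.

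Regulators known to act on keratin genes moved in both directions. Of 19 tested, 4 were higher and 8 lower, with a median log2 fold change of -0.29. Over all tested genes, 21.7% were higher and 20.3% lower. TP63 is the master factor of basal and squamous epithelium and a known activator of KRT5 and KRT14. Its transcript rose by 0.61 (standard error 0.113, adjusted p = 5.31e-04 by edgeR's quasi-likelihood test). Whether TP63 or the other regulators had a part in the keratin values was not tested. STAT3 rose by 0.73. FOSL1, an AP-1 subunit, fell by 1.20 (standard error 0.140, adjusted p = 9.57e-06), MYC fell by 0.90 and JUN fell by 0.77.

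The wider basal and luminal gene lists were called in both directions, as were all tested genes, of which 21.7% were higher and 20.3% lower. Of 16 tested basal genes 6 were higher and 3 lower (median 0.04), and of 20 tested luminal genes 7 were higher and 7 lower (median 0.01), with 3 lower without shZDHHC15 replicate 1. Among basal genes EGFR rose by 0.74, ACTA2, which shares exon bases with FAS, by 0.67, and TP63 as given above, while ID4 fell by 0.90, CAV1 fell by 0.63 and ITGB4 fell by 0.28. Among luminal genes AGR2 rose by 2.10. KIT, from 2 and 1 counts to 18 and 11 counts, was at least 4.46-fold higher. CLDN3 fell by 1.12, CLDN4 fell by 0.74 and ALDH1A3, which an antisense gene overlaps, fell by 0.74. GATA3, the defining luminal factor, had a log2 fold change of -0.29 (adjusted p = 0.0519).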

How the data were processed

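RNA of HCC1954 cells was measured in 4 samples, 2 shCON and 2 shZDHHC15, grouped by sample title. The authors deposited raw counts of reads per gene for 58735 genes, not normalized, with gene positions and lengths. The submitters' processing notes name HISAT2, StringTie, SAMtools and hg38, without roles. The counting tool and the use of strand are not given in the sources used here. All 58735 identifiers matched GENCODE release 29 in start, end and symbol. Libraries held 17560982 to 19118704 counts, so that 3 counts correspond to 0.153 to 0.178 CPM. These limits cover counting error only.

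Genes passing filterByExpr (15817) were scaled by TMM and fitted in R 4.3.3 by the quasi-likelihood functions glmQLFit and glmQLFTest of edgeR 4.0.16, which calls limma 3.58.1, with Benjamini-Hochberg adjustment over those genes. The procedure was also run on counts simulated from its own fitted means and dispersions, with 200 genes changed. That run cannot bear on shared reads or on how the samples of a group were made. The standard error is the absolute log2 fold change divided by the root of F. Per-kilobase levels are CPM divided by the gene length in the table. Stretches of at least 150 bases at 97% identity were searched with BLAST 2.17.0. Samples of a group differed by more than counting noise (chi-square per degree of freedom 8.32 and 6.79).

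The keratins and all gene lists were chosen with earlier results of these data known. Named genes were the 10 keratins, ZDHHC15, YAP1, up to 10 other keratins past the adjusted p with at least 1 CPM, or with at least 10 CPM at any p, the 3 largest called rises and falls of each list, a defining gene of each list, and near-identical or overlapping genes. Some genes that this rule names are not reported here. The alternatives were other scalings, DESeq2 1.42.0, other filters, the legacy quasi-dispersion, a replicate block and each sample left out.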

Additional observations from a re-analysis of the deposited data

How the results depend on the processing

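Each of the 10 keratins was refitted under 12 alternatives, and 119 of the 120 fits kept both the direction and the side of the threshold. Leaving out 1 sample leaves a lone sample that is assumed to vary like the others. Over those fits KRT19 lay between 0.37 and 0.48, and it lost its call without shZDHHC15 replicate 1 (0.41), which left 1 to 2 keratins higher and 8 lower. Over the same fits the number of lower filament partner genes lay between 3 and 6, of lower luminal genes between 3 and 7 and of higher intermediate filament genes between 1 and 2, with the fewest lower filament partner and luminal genes without shZDHHC15 replicate 1. The number of higher intermediate filament genes was also 1 with the DESeq2 Wald test, with no filter and with at least 10 counts in every sample, the last of which removes NES. With no filter on low counts 2282 of all genes were higher, in place of 3427, and the adjustment then ran over 30168 genes. The cause of the other changes was not tested.

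The basal to luminal ratio was 1.26 in shCON and 1.43 in shZDHHC15 cells, 0.841 and 1.00 from counts without division by length, and 0.868 and 0.951 with principal transcript lengths, an alternative chosen after seeing the data, here and for the ratios between keratins. The replicate numbers do not pair the samples in the labels, and same-numbered samples deviated together with a correlation of 0.0344 across genes. Of the 10 keratins, 10 were higher in replicate 2 than in replicate 1 in shCON cells and 9 in shZDHHC15 cells. The share of all tested genes that were higher in replicate 2 was not computed. These counts therefore cannot be read as a trait of the keratins, and their cause was not tested. With the replicate block 3723 genes were higher and 3502 lower, and the keratins counted 2 higher and 8 lower as without it. KRT14 rests on 46 to 103 counts per sample, the fewest of the 10.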
